A study of Mus musculus with 51 samples.

Results

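A set of 8 genes that mark or specify primordial germ cells, or that belong to the Dppa (developmental pluripotency associated) group, was followed through Bmp4-induced differentiation of mouse ES cells. They are Prdm1, Prdm14, Tfap2c, Nanos3, Dppa3, Dppa2, Dppa4 and Dppa5a. They were chosen by symbol, and all 8 were present in each of the 9 expression tables, which hold 24538 genes each.

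The RNA-seq covered 14 conditions from 18 samples by their labels. F1G4 wild-type (WT) cells were measured as ES cell aggregates before Bmp4 and after 1, 2 and 3 days with 20 ng/ml Bmp4 on fibronectin, with 2 labelled samples per stage. ES cells were maintained with serum and LIF, and neither is listed for the differentiation medium that held Bmp4. Each stage after ES cells had Bmp4, so Bmp4, the change of medium and time cannot be told apart in the time course. Eomes KO and T KO cells were made from F1G4 by CRISPR deletion of the promoter and first exon, and Eomes/T dKO cells were made from the Eomes KO cells. These 3 lines were single clones and were measured on days 2 and 3 with the same Bmp4 treatment. Smad4 KO cells were single clones from Smad4 conditional ES cells in which Cre had removed the first exon. They were measured on days 1 and 2 beside the WT cells of that line, also with Bmp4. Each KO condition, and each WT condition of the Smad4 line, has 1 labelled sample. Feeder cells were removed before differentiation.

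In the mouse embryo, primordial germ cells arise from a few epiblast cells that receive Bmp4, which acts through Smad1, Smad5 and their shared partner Smad4. Prdm1, Prdm14 and Tfap2c are the transcription factors that set up the germ cell programme, and T (brachyury) is known to act upstream of Prdm1 and Prdm14. The Dppa genes are high in pluripotent cells, and Dppa3, also called Stella, is the classic marker that reappears in germ cells. The same genes are therefore known both from ES cells and from the germ line, so their RNA alone does not name a cell type.

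The members lie on 7 chromosomes of GRCm38, the assembly that the files call mm10. Dppa4 (chr16:48283733-48294237) and Dppa2 (chr16:48303908-48319723) are neighbours on the plus strand with 9670 bases between them. Prdm14 lies at chr1:13113457-13127163 on the minus strand, Tfap2c at chr2:172549593-172558622 on the plus strand and Dppa3 at chr6:122626410-122630272 on the plus strand. Nanos3 lies at chr8:84173731-84185217, Dppa5a at chr9:78367052-78368177 and Prdm1 at chr10:44437177-44528501, all on the minus strand. Dppa5a is the shortest, with a longest transcript of 619 bases, against 5281 for Prdm1. It has the pseudogene copies Dppa5b and Dppa5c on chromosome 9, and Dppa3 has one on chromosome X. None of the 3 copies is listed in the tables, so how reads shared with them were assigned is unknown.

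Promoter sequences were matched for 2 of the 8 members, Prdm1 and Nanos3, from RefSeq on GRCm38.p6. They are shown because the KO lines lack 2 T-box factors and a Smad, whose recognition letters can be looked for in them. Prdm1 is the founding repressor of the germ cell programme and Nanos3 an RNA-binding factor of early germ cells. Each line gives the 250 bases before the transcription start, 5′ to 3′ on the gene's minus strand. Prdm1 is at chr10:44458749-44458998 and Nanos3 at chr8:84176553-84176802. Both windows lie outside annotated exons and inside an intron of a longer transcript of the same locus. Capitals mark CAGGTG, an E-box.
Prdm1: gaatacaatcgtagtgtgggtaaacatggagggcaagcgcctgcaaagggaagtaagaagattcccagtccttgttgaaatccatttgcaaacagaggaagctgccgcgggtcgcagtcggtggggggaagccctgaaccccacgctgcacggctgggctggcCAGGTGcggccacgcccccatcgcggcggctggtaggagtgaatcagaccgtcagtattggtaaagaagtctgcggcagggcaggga
Nanos3: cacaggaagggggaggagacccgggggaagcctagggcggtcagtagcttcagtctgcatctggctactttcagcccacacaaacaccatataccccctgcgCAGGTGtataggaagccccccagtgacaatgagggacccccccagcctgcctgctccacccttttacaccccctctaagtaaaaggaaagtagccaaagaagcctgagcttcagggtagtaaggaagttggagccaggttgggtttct
The E-box matched once in each window, 87 bases before the start of Prdm1 and 148 bases before that of Nanos3, and 17.2% of 32851 promoter windows of this length held it. The T-box letters TCACACC, the Tcf/Lef letters CTTTGAT and the GC-rich Smad letters GGCGCC had 0 matches in both windows on either strand, and were held by 3.3%, 3.2% and 9.6% of all windows. The Prdm1 window held 15 CpG and the Nanos3 window 3, against a median of 6. A match is only a match of letters, and none of these RNA data show binding.

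Expression was given as FPKM, fragments scaled by transcript length and by the mapped fragments of the library, so that levels can be compared between genes. Each table holds a single pooled value per condition, so no SD, n or test could be given and no difference below has a replicate check. Following the authors' rule, only genes with FPKM above 1 in either of the compared columns were examined, and those with a log2 ratio above 1 or below −1 were called. Columns held 10418 to 11248 genes above FPKM 1. The targeted genes were lower where the annotation can show it. Eomes had FPKM of 2.42 in Eomes KO against 9.42 in WT on day 2 and 0.276 against 20.3 on day 3. T had 6.64 in T KO against 44.8 on day 2 and 3 against 323 on day 3. In the dKO, Eomes was at 1.24 and 0.346 and T at 2.77 and 1.93. Smad4 was not lower in Smad4 KO (39.4 against 33.8 on day 1, 46.8 against 39.3 on day 2). A value for the whole gene does not show the loss of its first exon. The Eomes KO day 3 and T KO day 2 columns stood furthest from WT of the same day, with Pearson r of 0.894 and 0.888 across genes of FPKM at least 5, against 0.912 to 0.981 in the other 6 comparisons.

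In F1G4 WT cells all 8 members were called lower on day 3 than in ES cells, where 12.6% of 11554 genes examined were called lower. Their median log2 ratio was −3.13 with 0.1 added to each FPKM, against −0.02 over all genes examined. The members did not go down together. Between ES cells and day 1, 6 of 8 were called lower (5.84% of all genes examined), and the 2 that were not are the neighbours Dppa2 and Dppa4. Between days 1 and 2, 3 of the 6 examined were called lower (4.13%), namely Dppa2, Dppa4 and Dppa3. Between days 2 and 3, 4 of 5 were called lower (4.06%) and Tfap2c was called higher (6.14%). In these bulk samples, fewer expressing cells and less RNA per cell cannot be told apart.

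Of the 3 transcription factors, Prdm1 and Prdm14 were low on days 1 to 3 in F1G4 WT, and Tfap2c stood above them. Prdm1, a repressor of somatic genes in germ cell precursors, had FPKM of 3.21 before Bmp4, then 1.03, 0.552 and 0.629 on the following days. Prdm14, which also guards naive pluripotency in ES cells, had 4.17, 0.0599, 0.0839 and 0.535 at the same stages. Its log2 ratio of −6.12 between ES cells and day 1 was the lowest of the 8, and its later values are all below FPKM 1. Tfap2c, a factor of both germ cells and trophoblast, had FPKM of 17.0, 3.2, 3.01 and 6.74. It was the only member to be called higher at any step (log2 1.16 between days 2 and 3, and 0.95 with 1 added to each FPKM). Over that step the summed FPKM of 7 trophoblast and amnion markers went from 556 to 1520. Most of it was the keratins Krt8 (233 to 619) and Krt18 (312 to 846). Krt7, Krt8, Krt18 and Cdx2 were called higher. Gata3 (0.723 to 0.628) and Tfap2a (0.349 to 0.477) stayed under FPKM 1. Elf5, a defining gene of trophoblast stem cells, was listed at 0 on both days. The paper reports little or no expression of the trophoblast genes Cga and Gcm1. The part of such cells in the Tfap2c values was not tested. Nanos3, needed for germ cell survival, had FPKM of 1.08, 0.402, 0.229 and 0.330.

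In ES cells the 4 Dppa genes ranked between 45 and 920 among all genes by FPKM. Dppa5a, an RNA-binding protein of the KH domain type, had FPKM of 1141 before Bmp4 and 477, 277 and 100 with 1 to 3 days of it, and its rank went from 45 to 803. Dppa3, which shields DNA methylation in the zygote, had 218, 80.3, 34.6 and 16 over the same stages. The log2 ratios of its 3 steps were −1.44, −1.21 and −1.11, all called, while the middle step of Dppa5a (−0.79) was not.

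Dppa2 and Dppa4, chromatin proteins with a SAP domain that work as a pair, kept most of their RNA on day 1 and then parted. Dppa2 had FPKM of 103, 64.7, 13.4 and 0.955, a 108-fold difference between ES cells and day 3. Dppa4 had 170, 145, 36.4 and 10.9, a 15.6-fold difference. The quotient of Dppa2 over Dppa4 FPKM was 0.607 before Bmp4 and then 0.446, 0.368 and 0.0875. In ES cells the order of levels from the highest was Dppa5a, Dppa3, Dppa4, Dppa2, Tfap2c, Prdm14, Prdm1 and Nanos3. On day 3 Tfap2c stood above Dppa2 and Prdm1 above Prdm14. With 1 pooled value per stage, no pair of neighbours in that order can be called different beyond its spread.

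**Figure D1:**
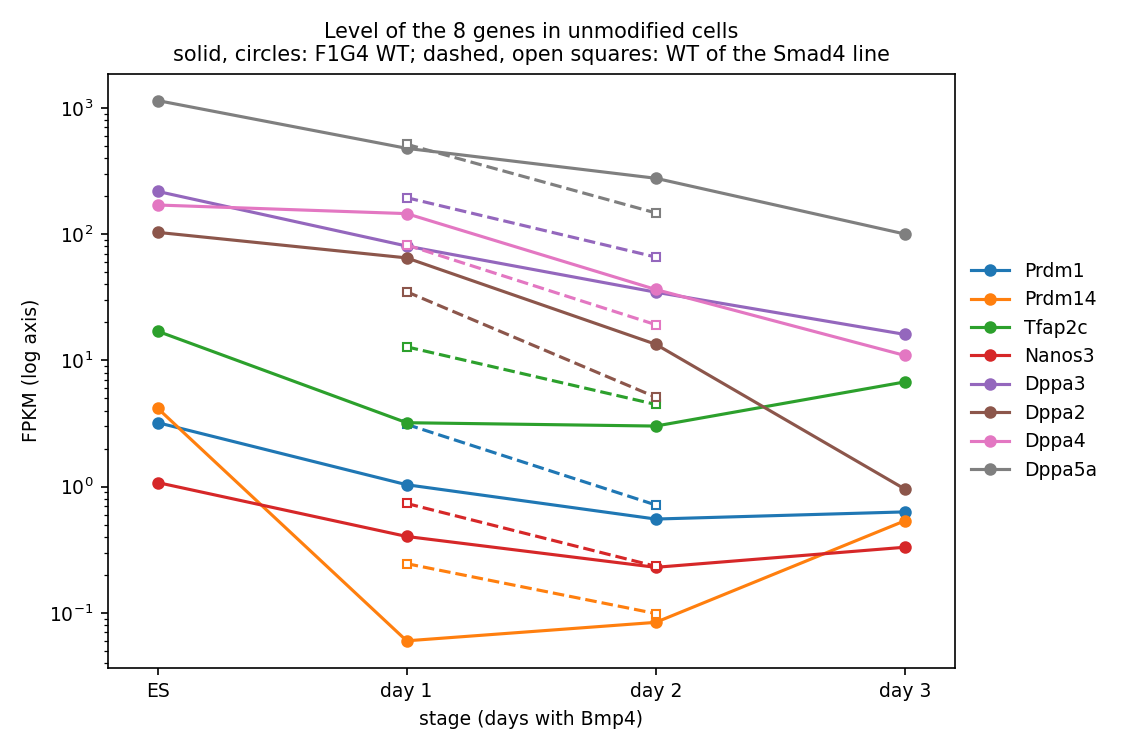
FPKM (log axis) of the 8 members in F1G4 WT ES cells and on days 1 to 3 with Bmp4 (solid lines, circles), and on days 1 and 2 in the WT counterpart of the Smad4 KO (dashed lines, open squares); each point is 1 pooled value. All 8 are below their ES level on day 3, Dppa2 has the steepest line between days 2 and 3 (13.4 to 0.955), and Tfap2c and Prdm14 are higher on day 3 than on day 2.

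The WT cells of the F1G4 and Smad4 lines gave a scale for these values. Those of the Smad4 line carry conditional Smad4 alleles, with the first exon flanked by loxP sites. On day 1, WT cells of the Smad4 line had 12.8 FPKM of Tfap2c against 3.2 in F1G4, 3.11 against 1.03 of Prdm1 and 194 against 80.3 of Dppa3. Centred on the median gene, these log2 ratios were 2.05, 1.64 and 1.33, where the 5th and the 95th percentile of genes above FPKM 1 in both were −0.79 and 0.96. Dppa2 was lower in the Smad4 line (34.9 against 64.7 on day 1, 5.10 against 13.4 on day 2), with centred log2 ratios of −0.84 and −1.38. Dppa4 was lower as well, with centred log2 ratios of −0.77 and −0.91. On day 2 Dppa5a had 147 FPKM in the Smad4 line and 277 in F1G4 (centred log2 −0.90). WT lines thus differed in several members by as much as some KO comparisons did, and line and table cannot be told apart here.

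Without Smad4, the shared partner of the Bmp-activated Smads, most of the abundant members were lower on day 2 and Dppa4 was not. Of the 5 members examined, 4 were called lower and 0 higher, where 3.21% and 2.56% of 10999 genes examined were called lower and higher. The median log2 ratio of the 8 members, with 0.1 added, was −1.73, against −0.01 over all genes examined. Dppa5a had FPKM of 21.4 in Smad4 KO against 147 in WT (6.86-fold lower, log2 −2.78). Dppa3 had 9.87 against 65.7 (6.66-fold lower, log2 −2.74). Tfap2c had 0.854 against 4.47 (5.23-fold lower, log2 −2.39). In rank from the lowest ratio, these 3 were 67th, 70th and 88th among the genes examined. Dppa2 had 1.48 against 5.10 (3.46-fold lower, log2 −1.79), and its neighbour Dppa4 had 19.3 against 19.1 (log2 0.01). The quotient of Dppa2 over Dppa4 was 0.0765 in Smad4 KO and 0.267 in WT. Prdm1 (0.167 against 0.715), Prdm14 (0.134 against 0.0985) and Nanos3 (listed at 0 against 0.233) were below the minimum and not examined.

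On day 1 Dppa5a and Tfap2c were called lower and Dppa3 and Dppa2 were not. Dppa5a had 222 FPKM in Smad4 KO against 514 in WT (2.32-fold lower, log2 −1.21) and Tfap2c 6.34 against 12.8 (log2 −1.01, just past the limit). These 2 of the 6 members examined were called lower and 0 higher, beside 2.41% and 2.36% of all 11232 genes examined. Dppa3 had 116 against 194 (log2 −0.75), Dppa2 22.5 against 34.9 (log2 −0.63), Prdm1 2.77 against 3.11 (log2 −0.16) and Dppa4 78.7 against 82.0 (log2 −0.06). Nanos3 had 0.302 against 0.734 and Prdm14 0.145 against 0.245, both under the minimum. All 8 values were lower in KO (that of Dppa4 was 0.01 on the TPM scale), with a median log2 ratio of −0.69 against 0 over all genes examined.

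**Figure D2:**
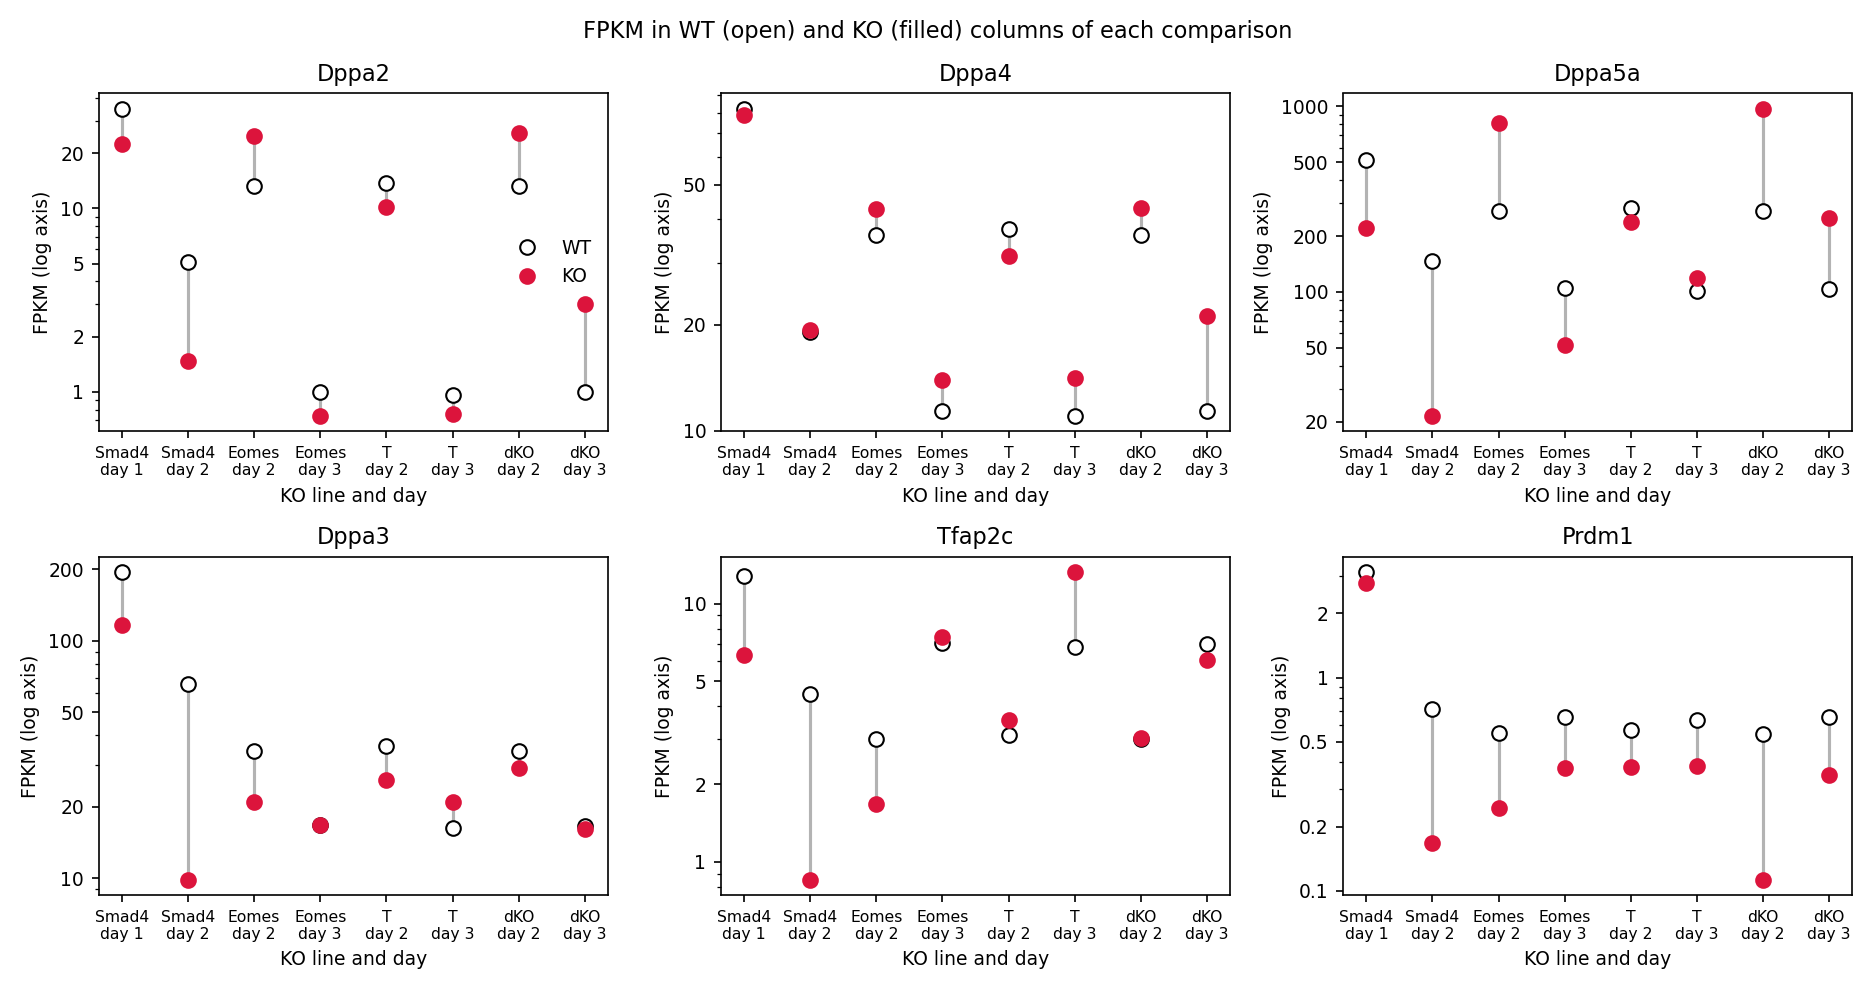
FPKM (log axes, a separate range in each panel) of 6 members in the WT column (open) and the KO column (filled) of each of the 8 comparisons, joined by a line; each point is 1 pooled value. Dppa5a lies below WT in Smad4 KO (21.4 against 147 on day 2) and above it in the dKO (970 against 273 on day 2), Dppa4 lies on its WT value in Smad4 KO on day 2, and Prdm1 is below WT in each comparison.

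Several pluripotency genes were also lower in Smad4 KO. Among 7 markers of naive ES cells, 4 were examined on day 2 and all 4 were called lower. Zfp42 had 5.38 FPKM against 14.0, Esrrb 0.276 against 1.11, Tfcp2l1 0.884 against 1.83 and Tbx3 0.106 against 1.88. Tfcp2l1 was just past the limit (log2 −1.05, and −0.98 with 0.1 added). Tbx3 is not only a naive marker in these cells. It was called higher between days 1 and 2 in F1G4 WT (1.01 to 3.36), and the paper counts it among the mesoderm control genes activated by Smads. The summed FPKM of the 7 was 7.30 in KO and 19.9 in WT. Among 12 other early germ cell and pluripotency genes, 10 were examined, 3 were called lower and 1 higher. Nanog, a core pluripotency factor, had 26.8 against 121, Ifitm1 2.64 against 10.8 and Ifitm3, a surface protein of early germ cells, 8.93 against 34.3. Sox2, a pluripotency and neural factor, had 120 against 35.2 and was the one called higher. Of 7 markers of feeder fibroblasts the summed FPKM was 5.36 against 2.18, with Dcn at 2.02 against a listed 0. The part of any cell type in the values of the members was not tested.

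Of 15 signals and factors upstream of germ cell fate, 12 were examined in Smad4 KO on day 2, with 6 called lower and 1 higher. Id1, a direct Bmp target, had 0.806 FPKM against 16.1, and Wnt3, the ligand that induces T, had 1.25 against 13.7. T had 0.891 against 26.6 and Eomes 1.73 against 24.8. Otx2, known to hold back germ cell entry, had 54.2 against 15.3 (log2 1.82), outside the 4 largest differences of the list and chosen after its value was seen.

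In cells without Eomes, a T-box factor of early mesoderm and endoderm, Dppa5a was called in opposite directions on the 2 days. On day 2 it had 814 FPKM in Eomes KO against 274 in WT (2.97-fold higher, log2 1.57). It was the only one of 5 members examined to be called, with 4.17% and 3.35% of 11226 genes examined called lower and higher. Dppa2 had 24.7 against 13.2 (log2 0.90), Dppa4 42.7 against 36.0 (log2 0.25), Dppa3 20.9 against 34.4 (log2 −0.72) and Tfap2c 1.68 against 2.98 (log2 −0.83, −1.04 on the TPM scale). On day 3 Dppa5a had 51.9 against 105 (log2 −1.02). It was the one member of 4 examined called lower and 0 were called higher, beside 9.01% and 7.39% of 11629 genes. Dppa3 had 16.7 in both columns, Dppa4 13.9 against 11.4 and Tfap2c 7.42 against 7.02. The day 3 call of Dppa5a was lost when ratios were centred on the median gene (log2 −0.96) or on coding genes of like transcript length (log2 −0.68).

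In cells without T, the brachyury factor of the primitive streak, 0 members were called on either day. On day 2, 5 were examined, beside 9.93% of 11359 genes called lower and 5.70% called higher. Dppa5a had 238 FPKM against 285 in WT (log2 −0.26), Dppa3 25.8 against 35.9, Dppa4 31.4 against 37.4, Dppa2 10.2 against 13.8 and Tfap2c 3.54 against 3.10. On day 3, 4 were examined, beside 3.92% of 11239 genes called lower and 2.12% called higher. Tfap2c had 13.2 against 6.79 (log2 0.96), just inside the limit and 265th from the highest ratio. Dppa5a had 119 against 101, Dppa3 21.0 against 16.2 and Dppa4 14.1 against 11.0. Of the 7 trophoblast and amnion markers, 5 were examined in T KO on day 3, with 1 called lower and 0 higher. That one was Cdx2, a trophoblast and posterior mesoderm factor, at 0.498 against 7.35 (log2 −3.88). Krt7 had 78.6 against 46.8, Krt18 1100 against 853, Gata3 1.01 against 0.633 and Krt8 549 against 624. The part of trophoblast or amnion cells in the Tfap2c value was not tested here either. Values of T KO and Eomes KO share their WT samples with each other and with the dKO.

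In Eomes/T dKO cells the members that were called, Dppa5a and Dppa2, were higher. On day 2 Dppa5a had 970 FPKM against 273 (3.55-fold higher, log2 1.83) and was the one member of 5 examined to be called, beside 4.50% of 11195 genes called lower and 3.48% called higher. Dppa2 had 25.9 against 13.2 (log2 0.97), just inside the limit. Dppa4 had 42.8 against 35.9 (log2 0.25, but −0.16 on the TPM scale), Dppa3 29.2 against 34.3 and Tfap2c 3.01 against 2.98. On day 3, 2 of 5 members were called higher and 0 lower, beside 5.51% and 5.53% of 11473 genes. Dppa2 had 3.03 against 0.994 (3.05-fold higher, log2 1.61) and Dppa5a 250 against 104 (2.40-fold higher, log2 1.26). Dppa4 had 21.1 against 11.4 (log2 0.89), Dppa3 16.1 against 16.6 and Tfap2c 6.06 against 6.99. The 7 naive ES markers did not share one direction in the dKO on day 2, where 5 were examined, 1 was called higher and 0 lower, and the median log2 ratio was −0.70. Nr0b1 was the one called (1.04 against 0.295), while Zfp42 had 24.7 against 19.7, Esrrb 1.14 against 2 and Tfcp2l1 1.11 against 1.87. In Eomes KO on day 2, 0 of the 4 examined were called and the median was −0.42. Dppa2 on day 3 was at 0.739 in Eomes KO, 0.757 in T KO and 3.03 in the dKO, where the WT columns gave 0.965 to 1.

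**Figure D3:**
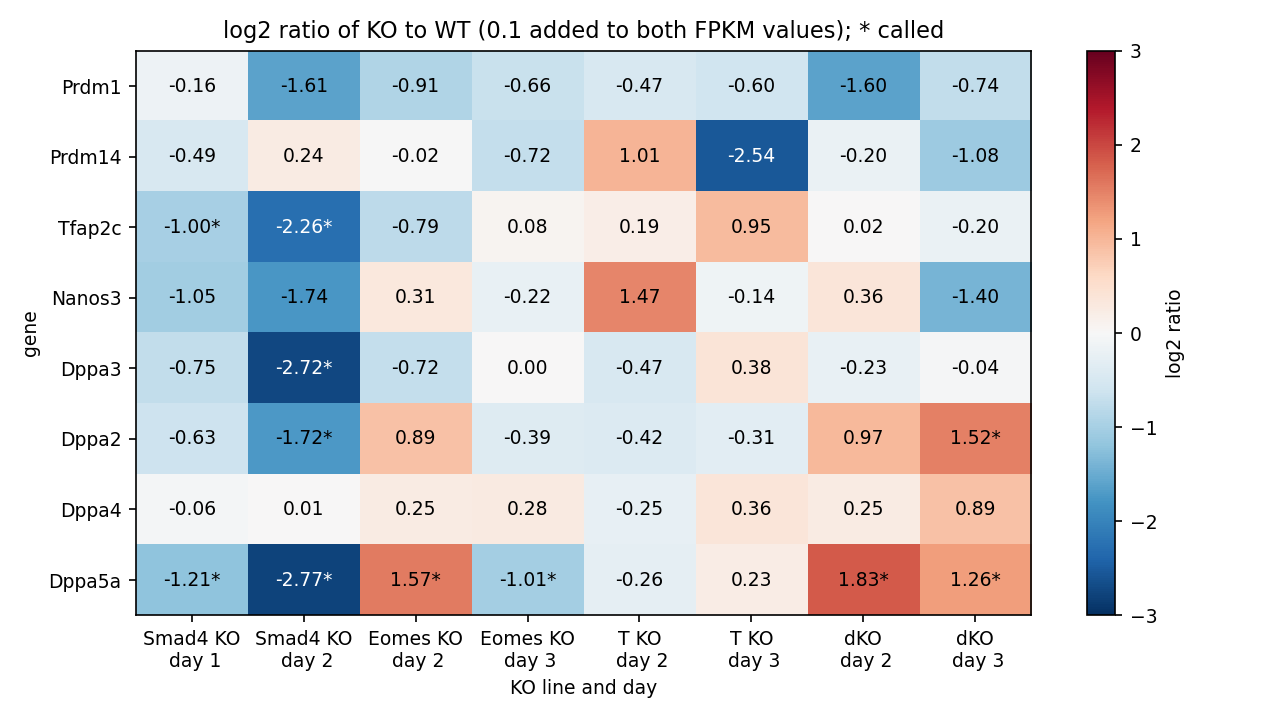
Log2 ratio of KO to WT FPKM, with 0.1 added to both values, for the 8 members (rows) in the 8 comparisons (columns); red is higher in KO, blue lower, and a star marks a call by the authors' rule, which adds nothing to the values. Stars are densest in Smad4 KO on day 2 (4 members) and absent in T KO, and Dppa5a carries stars of both colours.

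In the KO comparisons, but not in each step of the time course, the median of short genes had the sign of Dppa5a. Coding genes whose longest transcript is up to 928 bases, which is 1.5 times that of Dppa5a, had a median log2 ratio of 0.22 in Eomes KO on day 2 (454 genes), −0.32 on day 3 (457 genes) and 0.48 in the dKO on day 2 (460 genes). The medians were 0.12 in the dKO on day 3, −0.11 and −0.03 in Smad4 KO on days 1 and 2, and −0.12 and 0.04 in T KO on days 2 and 3. The sign equalled that of Dppa5a in each of the 8 comparisons, 6 of which share their WT samples with others. In F1G4 WT the short genes had medians of −0.11, 0.02 and 0.04 over the successive steps from ES cells to day 3, where Dppa5a had −1.26, −0.79 and −1.47. After the median of coding genes of like length was subtracted, Dppa5a had log2 ratios of 1.36 in Eomes KO and 1.36 in the dKO on day 2, 1.14 in the dKO on day 3, and −1.10 and −2.74 in Smad4 KO. These were still past the limit, whereas that of Eomes KO on day 3 was not. Library size and RNA quality are not readable from FPKM, and their part was not tested.

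**Figure D4:**
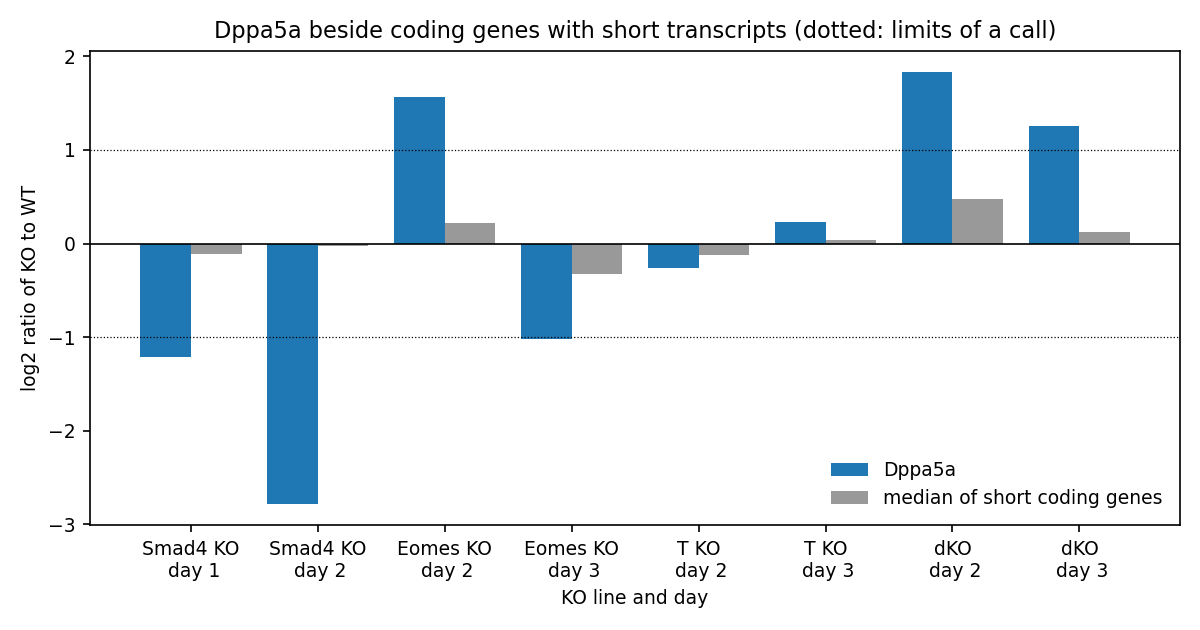
Log2 ratio of KO to WT FPKM of Dppa5a (blue) and the median of coding genes with longest transcripts up to 928 bases (grey) in the 8 comparisons; dotted lines mark 1 and −1. The grey bars reach from −0.32 to 0.48 and point the same way as the blue ones, which reach from −2.78 to 1.83.

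Prdm1, Prdm14 and Nanos3 were mostly under FPKM 1 in the KO comparisons. Prdm1 was lower in KO in all 8, but it was examined only in Smad4 KO on day 1. Its FPKM on day 2 was 0.244 in Eomes KO against 0.547, 0.382 in T KO against 0.569 and 0.113 in the dKO against 0.546. On day 3 it was 0.378 against 0.655, 0.385 against 0.634 and 0.351 against 0.652. These WT columns are the same samples scaled to each table, so the 6 values are not separate comparisons with WT. The largest differences were in the dKO on day 2 (log2 −2.28) and in Smad4 KO on day 2 (log2 −2.10), both of values under 1.

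Prdm14 had its lowest value of the 14 conditions in T KO on day 3, 0.0103 FPKM against 0.540 in WT. On that day it had 0.300 in Eomes KO and 0.210 in the dKO. On day 2 it was 0.277 in T KO against 0.0875 in WT. At these levels a few reads could set the value, and no ratio was called. Nanos3 had 0.833 FPKM in T KO on day 2 against 0.237, and 0.0677 in the dKO on day 3 against 0.341. The median gene of chromosome 8, which holds Nanos3, had log2 ratios of 0.17 to 0.23 in the 6 comparisons with F1G4 WT, where Nanos3 was above WT in 3 and below it in 3.

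Other germ cell and pluripotency genes divided between directions in the F1G4 KO lines. On day 2 Ifitm3 was called lower in all 3 lines, with 11.7 FPKM in Eomes KO, 16.9 in T KO and 10.4 in the dKO against about 37 to 38 in WT. Alpl, the alkaline phosphatase long used to stain germ cells, was called higher in all 3, with 24.5, 24.5 and 20.7 FPKM against 9.56, 9.97 and 9.54. Sox2 had 51.6, 55.2 and 42.1 against 21.3, 22.2 and 21.3, called higher in Eomes KO and T KO (log2 0.98 in the dKO). On day 3 Dnd1, an RNA-binding partner of Nanos proteins, was called lower in all 3 (5.27, 3.78 and 5.01 FPKM against 16.5, 15.9 and 16.4). Over the whole list of 12, median log2 ratios lay between −0.54 and −0.16 in these 6 comparisons, beside −0.04 to −0.01 for all genes examined.

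Among the upstream signals and factors, Id1 and Id3 were called higher in Eomes KO on day 2, with 105 FPKM against 51.4 and 94.7 against 40.0. In the dKO on day 2 Id3 was called higher (84.4 against 39.9, log2 1.08) and Id1 was not (101 against 51.3). The log2 ratio of Id1 was 0.98 in the dKO and 1.03 in Eomes KO, on either side of the limit. In T KO on day 2 Id1 was called lower (26 against 53.4, log2 −1.04), Eomes was called higher (24.7 against 9.81) and Id3 had 50.9 against 41.6. In T KO on day 3 Id3 was called higher (93.4 against 41.3). On day 3 Bmp4 and Wnt3 were called lower in all 3 lines. Wnt3 had 3 FPKM in Eomes KO, 7.47 in T KO and 9.72 in the dKO against 25.3 to 26.1 in WT. Bmp4 RNA of the cells themselves was at 1.25, 1.14 and 1.30 against 2.71 to 2.80.

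Of 5 genes of later germ cells, some were called higher in Eomes KO and dKO cells on day 2. In Eomes KO on day 2, 2 of the 4 examined were called higher and 0 lower. Stra8, a gene of entry into meiosis, had 1.53 FPKM against 0.0272 and Dazl, a germ cell RNA-binding protein, 2.88 against 1.17. Ddx4, the helicase Vasa, had 17.3 against 9.64 and Sycp3, of the synaptonemal complex, 53.4 against 32.3, both within the limit. In the dKO on day 2 Sycp3 was the one called higher (65.1 against 32.2, log2 1.01, just past the limit). Ddx4 had 19 against 9.62 (log2 0.98, just inside it). Nanos2, a marker of male germ cells, was listed at 0 in Eomes KO, dKO and WT on day 2. In F1G4 WT the 5 genes summed to 26 FPKM before Bmp4 and then to 51.7, 43.4 and 14.9.

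Of 10 genes thought to depend on Dppa2 and Dppa4 in ES cells, 9 were in the tables and only Mael passed FPKM 1 in any column. Mael, a factor of the germ line piRNA pathway, had 10.7 FPKM against 3.31 in Eomes KO on day 2, 8.91 against 3.30 in the dKO on day 2 and 2.46 against 0.770 in the dKO on day 3. All 3 were called higher. The Zscan4 genes, Zfp352, Tcstv1 and Tcstv3, which belong to the transient state of ES cells that resembles the early embryo, had at most 0.300 FPKM in the KO comparisons. Dppa2 and Dppa4 were thus measured in cells where these genes were at or near 0.

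Over the 14 conditions every pair of members was positively correlated, some pairs closely and others weakly. Pearson r of log2(FPKM + 0.1) was 0.95 between Dppa2 and Dppa4, 0.89 between Prdm1 and Dppa3, and 0.85 between Dppa2 and Dppa5a. It was 0.04 between Tfap2c and Dppa2 and 0.20 between Prdm14 and Dppa5a. The points share lines, days and libraries, and the ES column is far from the others in several genes, so these values are descriptions of 14 columns.

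Among 9297 genes of FPKM at least 5 in some condition, the 3 with the course most like that of Dppa3 were Dnmt3l (r = 0.933), the partner of the de novo DNA methyltransferases, Mylpf (0.933) and Cpsf4l (0.932). For Tfap2c they were Ifitm1 (0.909), Calcoco2 (0.902) and Klf2 (0.894). For Prdm1 they were Cpsf4l (0.926), Calml4 (0.923) and Gpx2 (0.906), and for Prdm14 Kdm3a (0.872), Rmnd5b (0.862) and Klf4 (0.843), a naive pluripotency factor. For Dppa5a they were Gm14139 (0.945), Asna1 (0.920) and EU599041 (0.905).

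The genes most like Dppa2 and Dppa4 were named after their values were seen, and 3 of the 4 are known from the germ line. They were Psma8 (r = 0.987), a testis proteasome subunit, Tdrd12 (0.965), of the piRNA pathway, and Hsf2bp (0.958), a meiotic recombination factor, for Dppa2, and Hsf2bp (0.979), Tdrd12 (0.973) and Rasip1 (0.973) for Dppa4. In F1G4 WT, Tdrd12 had FPKM of 43.5, 25.4, 4.35 and 1.22 from ES cells to day 3. Hsf2bp had 43.8, 31.0, 5.46 and 1.59 at these stages. In Smad4 KO on day 2 Psma8 had 0.923 against 2.05, Tdrd12 2.71 against 3.78 and Hsf2bp 1.99 against 2.58. Rasip1 went the other way, with 0.863 against 0.712.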

How the data were processed

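RNA was measured by strand-specific RNA-seq (ScriptSeq libraries from total RNA, paired-end). The authors trimmed reads with cutadapt 2.9, aligned them with Hisat2 2.1.0 to mm10 with the refSeq annotation, and computed FPKM with Cuffdiff 2.2.1, corrected for multi-mapping reads and sequence bias but not for effective length. The deposited FPKM values are pooled: each of the 9 tables gives 1 value per gene and condition. The legends call them averages of 2 replicates, while the labels give 1 sample per KO condition, so the number behind a KO column is unclear. Depth per sample is unknown, and no interval or test was computed.

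Ratios were taken within a table. Levels of F1G4 WT came from the time course, whose columns differ from those of the KO tables by median factors of 0.989 to 1.04. Comparison of the WT lines crossed tables. Alternatives were no FPKM minimum, a minimum of 5, pseudocounts of 0.1 and 1, rescaling to TPM and centring on the median of genes above FPKM 1, and, chosen after seeing the data, centring on coding genes within 1.5 times the transcript length. Positions and lengths are from the GRCm38 annotation. Scripts used Python 3.11.15, numpy 2.4.6 and pandas 2.3.3 and were tested on simulated data.

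Named genes are the 8 members, the 3 genes of most similar course for 5 of them (the rest are marked), up to 4 genes per list with the largest differences, and the targeted genes. Members and lists were chosen with earlier results of these data known, from general knowledge. A definitive endoderm list had summed FPKM of 0.467 to 8.43 over the conditions. A nascent mesoderm list had at most 416, on day 3 in F1G4 WT.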

Additional observations from a re-analysis of the deposited data

Results flagged for a closer look

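Dppa5a was called lower in 3 KO comparisons and higher in 3. Among pairs on the same day or within the same KO line, 4 had calls in opposite directions. The differences were not tested, since each column is 1 pooled value.

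On day 2 the log2 ratio was −2.78 in Smad4 KO and 1.57 in Eomes KO, a distance of 4.35, and it was 1.83 in the dKO, a distance of 4.61 from Smad4 KO. These KO lines were compared with WT cells of different lines, in which Dppa5a had 147 and 277 FPKM.

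Between days 2 and 3 of Eomes KO the ratio went from 1.57 to −1.02, a distance of 2.59. On day 3 it was −1.02 in Eomes KO and 1.26 in the dKO, which was made from the Eomes KO line, a distance of 2.28. The Eomes KO day 3 column is among the 2 that stood furthest from WT, and its Dppa5a call was lost under 3 of the alternatives.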

How the results depend on the processing

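No paired analysis was possible because each condition is 1 pooled column, so replicates were neither paired nor left out.

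Of 475 log2 ratios of members recomputed, 456 kept their status as called or not called, 9 lost a call, 10 gained one and 0 called values changed sign. Members under the FPKM minimum count as not called, also where their ratio crossed the limit. For Prdm1 in Smad4 KO on day 2 it went from −2.10 to −0.56 with a pseudocount of 1. The number of members called was within 1.5 times the main one in 66 of 84 cases. In Smad4 KO on day 1 it was 1 in place of 2 with a pseudocount of 0.1 or 1, when Tfap2c lost its call. Tfap2c also lost that call on the TPM scale (log2 −0.95), where the number stayed at 2 because Nanos3 gained one (log2 −1.22). With no FPKM minimum the number called was 2 on day 2 in each of the F1G4-derived lines, 1 in T KO on day 3 and 4 in the dKO on day 3, as members under FPKM 1 entered. With a minimum of 5 it was 1 in the dKO on day 3, 3 from ES cells to day 1 and 5 from ES cells to day 3, as fewer members were examined. On the TPM scale it was 3 and 0 in Eomes KO on days 2 and 3, 1 in T KO on both days, and 2 and 4 in the dKO. TPM also moved the median gene by up to −0.40 (dKO, day 2) and 0.23 (Eomes KO, day 3). The count in Eomes KO on day 3 was also 0 after centring on the median gene or on genes of like length. The 4 calls in Smad4 KO on day 2 were kept under each alternative except the minimum of 5, which Tfap2c did not pass, and Dppa5a kept its day 2 calls in Eomes KO and the dKO. Among the 456, uncalled values changed sign in 5 cases in the KO comparisons, of Dppa4, Tfap2c and Nanos3.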
